A study of Mus musculus with 2 samples.

Results

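The genes described here encode enzymes that add methyl groups to lysines of histones or take them off. They were chosen by name: every listed gene whose symbol begins with Kdm, Kmt, Setd, Ehmt or Suv39h, or is Nsd1, Nsd2 or Nsd3. The rule found 43 genes among the 18032 in the deposited table. All 43 symbols stand for protein-coding genes whose position is known in the mouse build GRCm38.p6. Polyadenylated RNA was sequenced from 2 states of mouse pluripotent cells, with 1 library for each. The mESC library came from wild-type E14TG2a embryonic stem cells held in the ground (naive) state without feeders, in serum-free N2B27 with 100 units/ml LIF, 1 µM PD0325901, an inhibitor that blocks ERK signalling, and 3 µM CHIR99021, which inhibits GSK3. The cEpiSC library came from wild-type epiblast stem cells converted in culture: mESC were plated in the same medium on fibronectin, and after 24 h were kept for 2 days in N2B27 that held FGF2 at 12 ng/ml and activin A at 20 ng/ml. Medium, inhibitors and coating thus differ along with the state, and their effects on a transcript and those of the state cannot be told apart.

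Methylation of histone lysines is written mostly by enzymes with a SET domain. It is erased by 2 unrelated classes of enzyme, the amine oxidases of the Kdm1 type and the JmjC dioxygenases. The dioxygenases need iron, oxygen and 2-oxoglutarate. The effect of a methyl mark depends on the lysine: methylated H3K4 is found at active promoters and enhancers, methylated H3K36 along transcribed genes, and methylated H3K9, H3K27 and H4K20 largely in repressed chromatin. Mouse embryonic stem cells keep many developmental promoters marked with both H3K4 and H3K27 methylation, and silence retroviral repeats through H3K9 methylation.

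The libraries held 19843719 (mESC) and 19956733 (cEpiSC) estimated counts. Levels between the libraries are compared in CPM, which relates each count to its library's total after TMM correction, and levels between genes in TPM, which is also corrected for transcript length. A difference is given as the log2 ratio of cEpiSC over mESC, followed in brackets by its exact 95% interval, which covers counting error only. With 1 library a state there is no replicate error and no p-value: each difference describes these 2 libraries. In RNA from bulk cultures, fewer cells of a type and less RNA per cell cannot be told apart. The labelled states were checked against marker genes. Of 10 naive markers 7 were at least 2-fold lower in cEpiSC and none higher, and all 8 primed or formative markers were at least 2-fold higher. Fibroblast markers, 6 genes of which Postn had no count in either library, summed to 3.88 (mESC) and 7.33 CPM (cEpiSC). The 6 markers of 2-cell-like cells summed to 0.103 and 5.77 CPM, and the 6 of mesendoderm to 30.6 and 14.6 CPM. Primitive endoderm markers summed to 76.6 and 32.3 CPM over 6 genes, mostly Dab2, and trophoblast markers to 94.9 and 54.9 CPM over 6 genes, mostly Tfap2c, with Cdx2 and Elf5 at 5 or fewer counts. Their part in the results below was not tested.

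Most members differed little. Of the 43 genes, 42 reached 1 CPM, and each of these did so in both libraries. The exception was Kdm4d, a demethylase gene known for its expression in testis, with 0 and 3 counts, at or under the floor of 3 counts, so that no ratio is given. Among the 42, the cEpiSC level was higher by 2-fold or more for 2 genes (Setd7 and Kdm4c) and lower by as much for 4 (Kmt2d, Kdm6b, Kmt2a and Kdm3b). Of all 13243 genes at 1 CPM or more, 13.6% were higher and 9.25% lower by that much, and the 6 members together were 14.3% of the 42, against 22.8% of all genes. The share of lower members was thus near that of all genes. A difference of at least 1.5-fold was seen in 3 members with higher and 12 with lower levels in cEpiSC, against 20.7% and 18.9% of all genes. These 15 were 35.7% of the 42, where 39.6% of all genes were as far apart. On either side of no difference, 13 members were higher and 29 lower, where all genes split into 48.8% and 51.2%. The median log2 ratio of the members was -0.26 and that of all tested genes -0.02. For 5 of the 6 genes the whole 95% interval was past 2-fold, Kmt2a being the exception. Just inside the 2-fold limit stood Kdm3b (2.11-fold lower) and just outside it Kmt2c (1.84-fold lower).

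**Figure D1:**
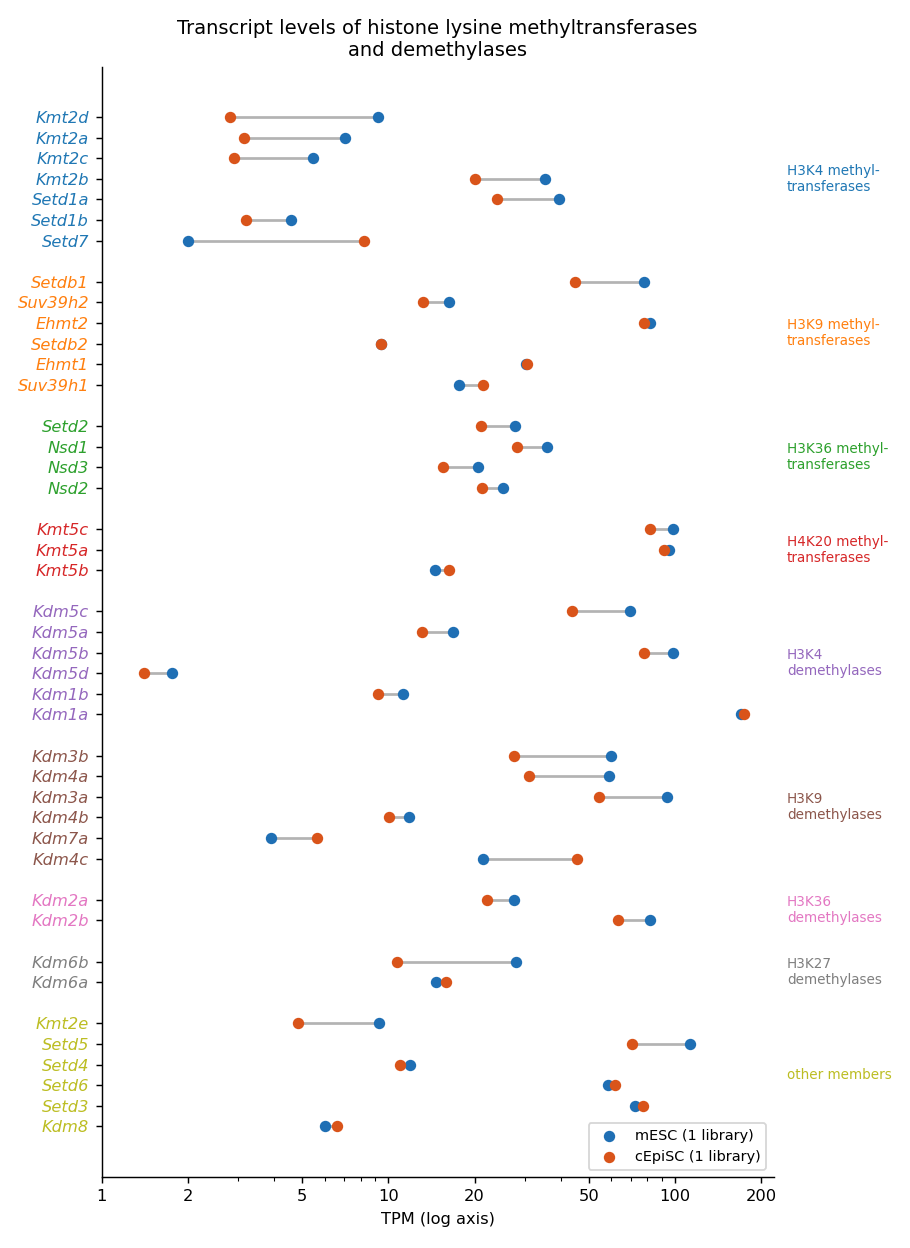
Levels of the 42 members at 1 CPM or more in TPM, on a log axis, grouped by the histone site each is best known for; each point is 1 library and a grey line joins the libraries. Kdm1a is the most abundant member in both libraries (169.5 and 173.6 TPM), and most blue mESC points lie to the right of the orange cEpiSC points.

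Because the results turn on a few genes at the extremes, the bases before the starts of 4 of them are shown, 2 with higher and 2 with lower levels in cEpiSC. They are RefSeq sequences of GRCm38.p6, 5′ to 3′ on the strand of the gene, from 250 bases before the start to the start or, where an annotated GENCODE vM21 exon of the gene begins earlier, to that exon. Start sites were listed for 32 of the 43 members, 44 in all, and Kdm6b and Kdm3b were not among these genes. The printed Kmt2d and Kdm4c windows lie inside the listed span of their gene, and the Kmt2a window does so in part. Capitals mark matches, on either strand, to the GC box GGGCGG, the CCAAT box (CCAAT), the E-box CACGTG or the TATA box TATAAA.
Setd7, chr3:51560880-51561073, minus strand: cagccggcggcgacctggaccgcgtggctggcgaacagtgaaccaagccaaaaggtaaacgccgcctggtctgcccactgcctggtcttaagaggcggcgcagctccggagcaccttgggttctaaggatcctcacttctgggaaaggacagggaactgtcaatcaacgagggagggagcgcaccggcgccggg
Kdm4c, chr4:74251629-74251878, plus strand: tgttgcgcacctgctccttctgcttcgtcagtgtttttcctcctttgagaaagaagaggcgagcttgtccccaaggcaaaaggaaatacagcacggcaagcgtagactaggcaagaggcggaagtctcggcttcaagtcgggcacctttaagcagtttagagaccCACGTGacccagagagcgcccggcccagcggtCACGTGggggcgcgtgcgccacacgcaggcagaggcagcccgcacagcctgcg
Kmt2d, chr15:98871206-98871455, minus strand: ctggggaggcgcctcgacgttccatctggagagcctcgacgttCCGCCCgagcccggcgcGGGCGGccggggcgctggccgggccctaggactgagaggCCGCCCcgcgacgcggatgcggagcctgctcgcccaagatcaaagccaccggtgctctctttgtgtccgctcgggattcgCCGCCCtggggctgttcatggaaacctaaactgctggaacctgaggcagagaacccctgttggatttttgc
Kmt2a, chr9:44881297-44881539, minus strand: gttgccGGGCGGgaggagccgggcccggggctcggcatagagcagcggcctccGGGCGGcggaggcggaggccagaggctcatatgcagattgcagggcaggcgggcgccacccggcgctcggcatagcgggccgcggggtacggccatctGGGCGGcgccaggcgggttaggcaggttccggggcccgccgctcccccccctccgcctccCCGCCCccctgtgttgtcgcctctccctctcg

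The windows before Kmt2d and Kmt2a each held 4 GC boxes, while those before Setd7 and Kdm4c held none. The Kdm4c window held 2 E-boxes, and the window before its other listed start, at chr4:74242247-74242496, held none of these motifs and 0 CpG. None of the 4 windows printed held a CCAAT or a TATA box. Across 250 bases before every start, a GC box was present in 29 of the 44 windows of members (65.9%), in 57.5% of 13513 windows of tested genes and in 32.7% of all 32851 windows. An E-box was present in 9.09%, 8.34% and 6.02%, a CCAAT box in 40.9%, 35.9% and 33.8%, and a TATA box in 2.27%, 6.20% and 12.4%. The median CpG count was 20.5 in windows of members, 15 in those of tested genes and 6 in all. These matches describe letters and were not tested for use in these cells, and windows of 1 gene can overlap.

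The enzymes that methylate H3K4 gave the largest differences. These are the catalytic subunits of the SET1 and MLL complexes, of which Setd1a and Setd1b act broadly at promoters, Kmt2a and Kmt2b at promoters of developmental genes, and Kmt2c and Kmt2d mainly at enhancers. All 6 of these genes were lower in cEpiSC, 2 of them by at least 2-fold and 5 by at least 1.5-fold. Of all tested genes 9.25% and 18.9% were lower by these amounts, and of the 187 with transcripts of 10 kb or longer, the class of Kmt2a, Kmt2c and Kmt2d, 22.5% and 43.9%. After centring on length, Kmt2c (-0.56), Setd1a (-0.53) and Kmt2b (-0.45) were lower by less than 1.5-fold. Kmt2d (Entrez 381022, chromosome 15, 98831669 to 98874077) had 1969 counts in mESC and 655 in cEpiSC, or 102 and 32.0 CPM. It was 3.18-fold lower in cEpiSC, a log2 ratio of -1.67 (-1.80 to -1.54), below all but 3.97% of tested genes. Kmt2a (Entrez 214162, chromosome 9, 44803355 to 44881352) had 1226 and 596 counts, or 63.4 and 29.1 CPM, 2.18-fold lower at -1.12 (-1.26 to -0.98). The Kmt2a difference was under 2-fold after adding 1 to TPM (-0.96) or FPKM (-0.77), which understates differences of low genes. It was also under 2-fold after centring on transcript length (-0.80). Without the added 1, its 7.08 TPM in mESC and 3.14 TPM in cEpiSC were more than 2-fold apart.

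The other 4 were lower by smaller amounts. Kmt2c went from 50.7 to 27.6 CPM, 1.84-fold lower at -0.87 (-1.03 to -0.73). Kmt2b, known for its part in setting H3K4 methylation at bivalent promoters, went from 141 to 82.5 CPM, 1.71-fold lower at -0.77 (-0.86 to -0.68). Setd1a went from 127 to 79.6 CPM, 1.59-fold lower at -0.67 (-0.76 to -0.58), and a GENCODE gene on the same strand, Gm49388, shares 51.8% of its exon bases. Setd1b had the smallest difference, from 22.3 to 16.1 CPM, 1.39-fold lower at -0.47 (-0.69 to -0.26). The 6 genes thus stood in the same direction, and each also stayed below 0 in all 9 scalings and centrings, the one used throughout included. These settings reuse the same 2 libraries. The smallest of the 6 length-centred ratios was that of Setd1b (-0.15), and no interval was computed for centred ratios.

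Per length, Kmt2b was the leading gene of the Kmt2a to Kmt2d group, with 61.8% of its summed TPM in mESC and 69.5% in cEpiSC. The share of Kmt2d went from 16.2% to 9.70%, and that of Kmt2c from 9.59% to 9.98%. The summed TPM of the group went from 57.1 to 29.0. In the Setd1 pair, Setd1a held 89.6% of the TPM in mESC and 88.2% in cEpiSC, so the pair kept nearly the same make-up at a lower level (43.8 and 27.04 TPM).

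Setd7, an enzyme that places a single methyl group on H3K4 and also methylates proteins other than histones, went the other way. It belongs to no SET1 or MLL complex. Setd7 (Entrez 73251, chromosome 3, 51515318 to 51560823) had 157 counts in mESC and 707 in cEpiSC, or 8.11 and 34.5 CPM. It was 4.26-fold higher in cEpiSC at 2.08 (1.84 to 2.35), above 94.4% of tested genes. In TPM it went from 2.00, the 41st of the 43 members, to 8.25, the 34th. On the log2(TPM + 1) scale, which understates differences of low genes, its ratio was 1.62, and with FPKM 1.49.

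**Figure D2:**
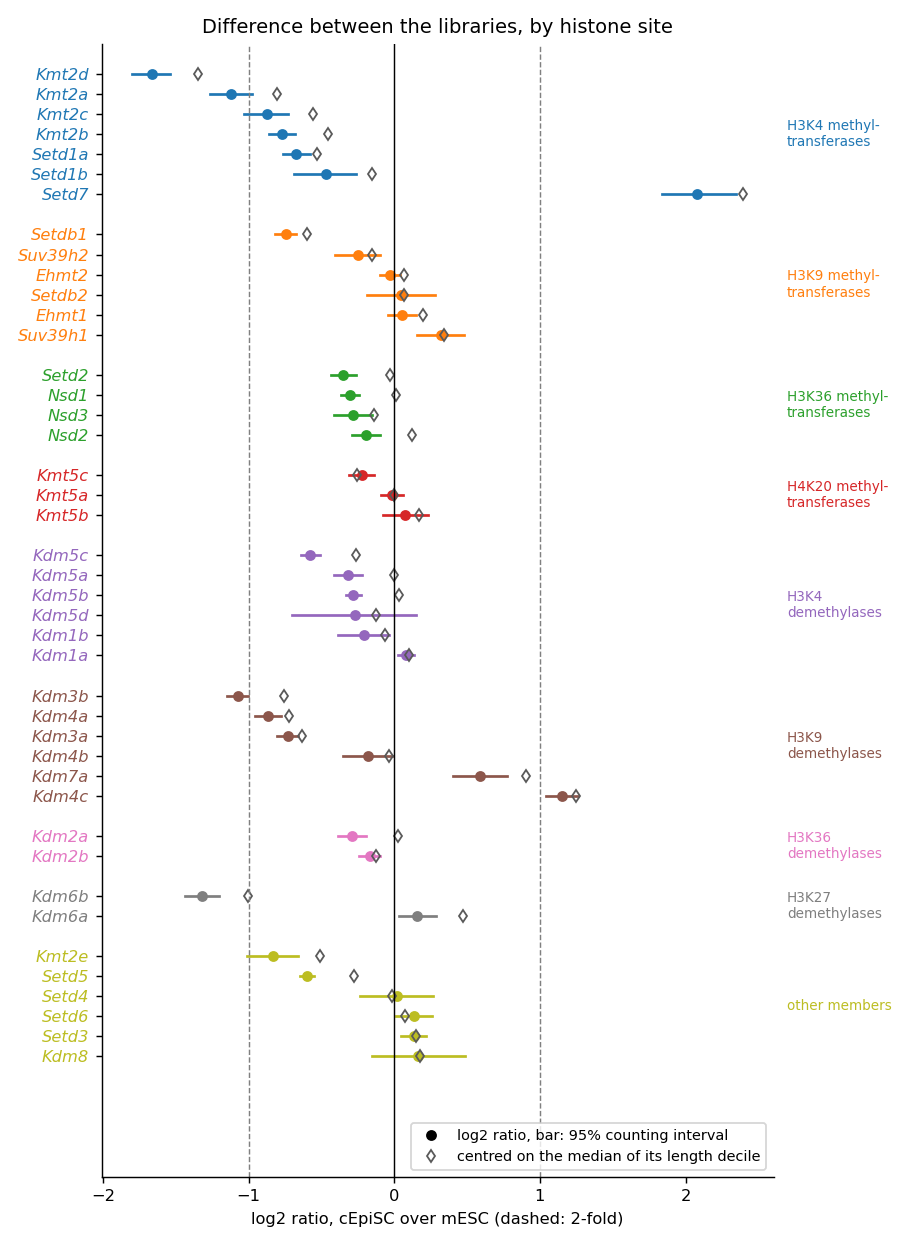
Log2 ratio of cEpiSC over mESC for the 42 members at 1 CPM or more, by histone site; dots carry 95% counting intervals, open diamonds show the ratio after subtracting the median of tested genes in the same decile of transcript length, and dashed lines mark 2-fold. Setd7 (2.08) and Kdm4c (1.15) lie beyond the right line, and Kmt2d, Kdm6b, Kmt2a and Kdm3b beyond the left one.

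The partners of the SET1 and MLL enzymes, which are no members, were counted from a list of 12 genes. Of these, 2 were at least 2-fold lower and none higher, against 9.25% and 13.6% of all genes. At 1.5-fold, 4 were lower and none higher, against 18.9% and 20.7%. Below 0 lay 9, where 51.2% of all genes did, and the list median was -0.50. The 2 were Ncoa6 (104 to 39.4 CPM, -1.40 [-1.52 to -1.28]) and Paxip1 (188 to 86.4 CPM, -1.12 [-1.21 to -1.04]), both known as subunits of the Kmt2c and Kmt2d complexes. Pagr1a, a further subunit of those complexes, stood at 43.1 and 37.4 CPM (-0.20 [-0.35 to -0.06]). Kdm6a, the demethylase subunit they share, was not lower. Among subunits common to all these complexes, Wdr5 (-0.53) and Rbbp5 (-0.68) were lower, Ash2l (0.04) stood near 0, and Dpy30 was higher, at 152 and 214 CPM (0.49 [0.43 to 0.56]). The remaining partners were Men1 (-0.63), Hcfc1 (-0.54), Wdr82 (-0.48), Cxxc1 (-0.04) and Psip1 (0.05). All partners but Ncoa6 and Paxip1 are named after their values were seen, to show the whole list.

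**Figure D3:**
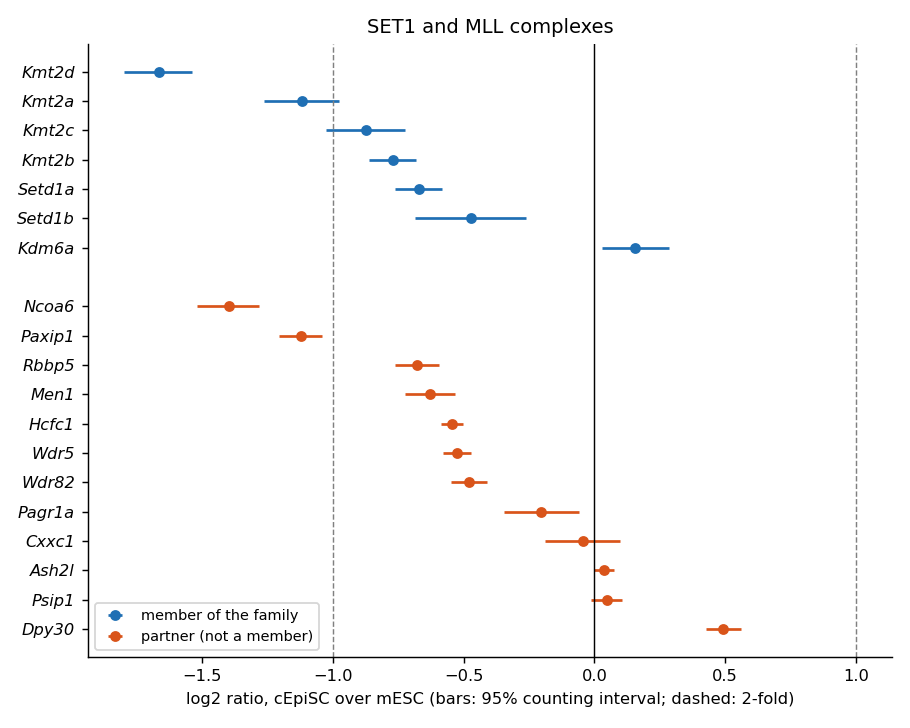
Log2 ratio of cEpiSC over mESC, with 95% counting intervals, of 7 members that act in SET1 and MLL complexes (blue) and 12 partners that are not members (orange); dashed lines mark 2-fold. Kmt2d, Kmt2a, Ncoa6 and Paxip1 lie beyond the left line, and Kdm6a and Dpy30 to the right of 0 with intervals that do not reach it.

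The 6 enzymes that remove H3K4 methylation were within 2-fold without exception, where 22.8% of all tested genes were at least 2-fold apart. Kdm1a, also called Lsd1, a demethylase of mono- and dimethylated H3K4 in the CoREST complex, was the most abundant member in both libraries per length (169.5 and 173.6 TPM). It stood at 271 and 287 CPM, a log2 ratio of 0.08 (0.03 to 0.13). The Kdm1a counts were 5251 and 5872.99, and a fraction as in cEpiSC arises when reads are split among similar loci. Its paralogue Kdm1b, known for its role in oocytes, stood at 28.7 and 24.8 CPM (-0.21 [-0.39 to -0.04]), also with counts that were not whole (554.96 and 507.47). The Kdm5 enzymes remove trimethylated H3K4. Kdm5b was the leading gene of that group, at 339 and 279 CPM (-0.28 [-0.33 to -0.23]), and was 0.04 after centring on length. Kdm5c, an X-linked gene, had the largest difference of the group, from 234 to 157 CPM, 1.49-fold lower at -0.58 (-0.64 to -0.51). Kdm5d, on the Y chromosome, had 102 and 89 counts, and this depth shows no difference (-0.27 [-0.70 to 0.15]). Kdm5a went from 102 to 81.9 CPM (-0.32 [-0.41 to -0.22]) and at -0.0014 after centring on length.

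Of the 9 listed partners of Kdm1a, 8 were below 0 and 1 was at least 2-fold higher in cEpiSC, where 51.2% of all tested genes were below 0 and 13.6% as much higher. That gene was Phf21a, which encodes the CoREST subunit that binds unmethylated H3K4. It had 585 counts in mESC and 1510 in cEpiSC, or 30.2 and 73.8 CPM, at 1.28 (1.15 to 1.43). The remaining 8 lay within 2-fold, and the list median was -0.34.

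The H3K9 demethylases differed in both directions. Kdm4c, which removes tri- and dimethylated H3K9 and H3K36 marks, and Kdm4a, which acts on the same sites, stood in opposite order in the libraries, each the most abundant gene of their group in 1 of them. Kdm4c (Entrez 76804, chromosome 4, 74242497 to 74405864) had 918 counts in mESC and 2156 in cEpiSC, or 47.4 and 105 CPM. It was 2.22-fold higher in cEpiSC at 1.15 (1.04 to 1.26). Kdm4a (Entrez 230674, chromosome 4, 118136957 to 118180090) had 2838 and 1646 counts, or 147 and 80.4 CPM, 1.82-fold lower at -0.87 (-0.96 to -0.78). Kdm4b, the remaining paralogue above 1 CPM, differed little at 31.0 and 27.3 CPM (-0.18 [-0.35 to -0.01]). Per length, Kdm4a held 63.9% of the group's TPM in mESC and 35.7% in cEpiSC, and Kdm4c 23.3% and 52.6%. The summed TPM of the group was 92.0 and 86.7, so the make-up differed far more than the sum.

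Both Kdm3 genes, whose products remove mono- and dimethylated H3K9, were lower. Kdm3b (Entrez 277250, chromosome 18, 34777008 to 34839370) had 4519 counts in mESC and 2268 in cEpiSC, or 234 and 111 CPM, 2.11-fold lower at -1.07 (-1.15 to -1.002). Its difference was under 2-fold with FPKM after adding 1 (-0.96) and after centring on length (-0.76). Of its exon bases, 24.6% lie opposite exons of the lincRNA gene Gm26538. Kdm3a, known for its roles in spermatogenesis and in the response to hypoxia, went from 220 to 132 CPM, 1.66-fold lower at -0.73 (-0.80 to -0.66). The summed TPM of the pair was 153 and 81.9. The third gene of this family carries another name, Jmjd1c, and is no member. Named after its value was seen, it was 1.74-fold higher, at 60.2 and 105 CPM (0.80 [0.69 to 0.90]). Kdm7a, which acts on H3K9 and H3K27, went from 20.5 to 30.9 CPM, 1.51-fold higher at 0.59 (0.41 to 0.78). The ratio of Kdm7a was under 1.5-fold with TPM or FPKM after adding 1, with a prior count of 5 or after centring on GC content.

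**Figure D4:**
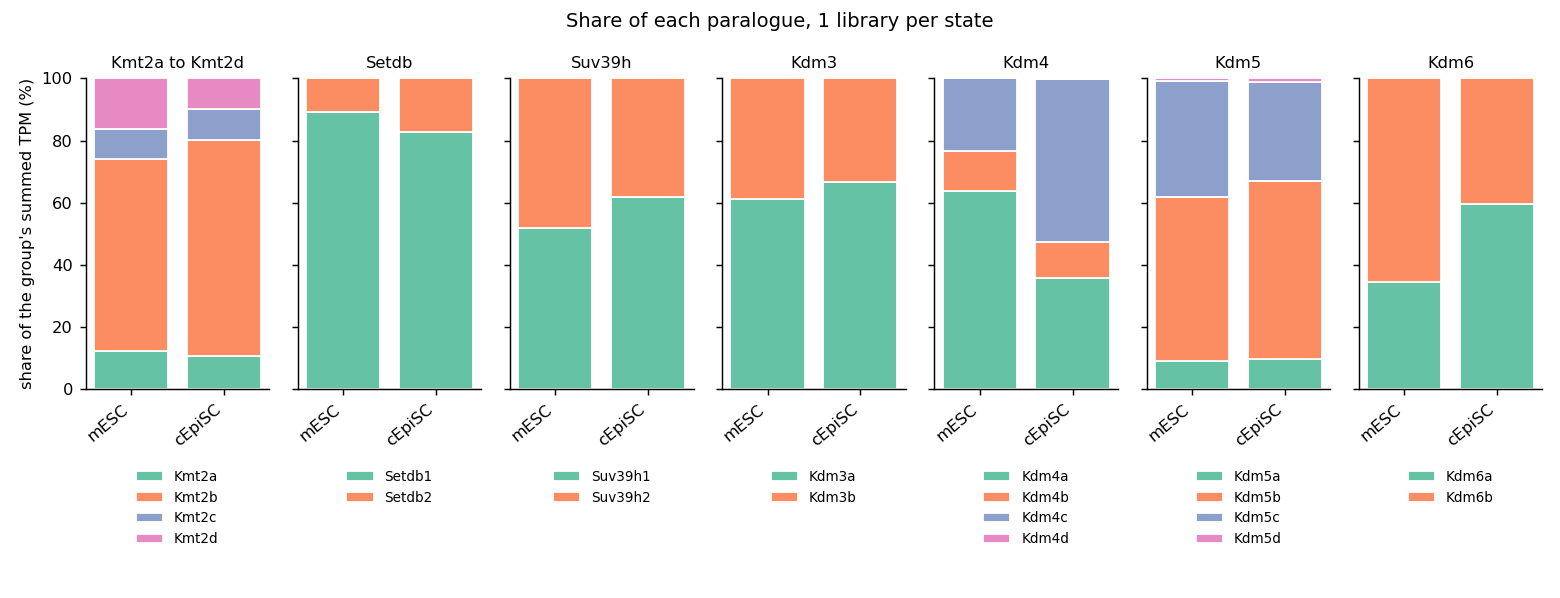
Share of each paralogue in the summed TPM of its group, as stacked bars for mESC and cEpiSC, 1 library each. In the Kdm4 bar Kdm4c goes from 23.3% to 52.6% and Kdm4a from 63.9% to 35.7%, and in the Kdm6 bar Kdm6a goes from 34.5% to 59.6%.

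The 6 H3K9 methyltransferases were within 2-fold, where 22.8% of all tested genes were at least 2-fold apart. Setdb1, which silences endogenous retroviruses with the corepressor Trim28, had the largest difference. It went from 3809 to 2401 counts, 197 to 117 CPM, 1.68-fold lower at -0.75 (-0.82 to -0.67), and was at -0.60 after centring on length. Setdb2 stood at 15.1 and 15.6 CPM (0.05 [-0.19 to 0.28]), so the share of Setdb1 in their TPM was 89.2% in mESC and 82.7% in cEpiSC. Ehmt2, also called G9a, which dimethylates H3K9 together with its partner Ehmt1, was the most abundant of the 6 per length (81.9 and 77.8 TPM). It stood at 173 and 169 CPM (-0.03 [-0.10 to 0.04]) and Ehmt1 at 84.4 and 87.7 CPM (0.05 [-0.04 to 0.15]), so that no difference was detectable for either. The Suv39h enzymes, which trimethylate H3K9 at pericentric heterochromatin, lay on opposite sides of 0. Suv39h1 went from 28.9 to 36.1 CPM, 1.25-fold higher at 0.32 (0.16 to 0.48). Suv39h2, with part of its reads shared, went from 38.0 to 31.9 CPM, 1.19-fold lower at -0.25 (-0.41 to -0.10). In TPM the Suv39h sum was 33.9 and 34.6, with 52.0% and 61.8% from Suv39h1. Exons of genes on the other strand cover 14.6% of the exon bases of Suv39h1 and 8.10% of those of Suv39h2 (from Dclre1c). Of 11 partners and readers of H3K9 methylation found from a list of 12, none was 2-fold apart, and the median was -0.14. By the smaller limit of 1.5-fold the count was also 0. Of all tested genes, 22.8% were 2-fold and 39.6% were 1.5-fold apart.

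The H3K27 demethylases parted. Kdm6b, also called Jmjd3, a demethylase induced by many signals, was 2.498-fold lower in cEpiSC. Kdm6b (Entrez 216850, chromosome 11, 69398508 to 69420367) had 1989 counts in mESC and 842 in cEpiSC, or 103 and 41.1 CPM, at -1.32 (-1.44 to -1.20). Its ratio was -1.001 after centring on length, at the 2-fold limit itself. Kdm6a, also called Utx, an X-linked gene whose product sits in the Kmt2c and Kmt2d complexes, had 934 and 1101 counts, or 48.3 and 53.8 CPM (0.16 [0.03 to 0.28]). Its share in the pair's TPM went from 34.5% to 59.6%, while the sum went from 42.5 to 26.6 TPM. Uty, the Y-linked copy of Kdm6a outside the name rule, stood at 17.9 and 20.0 CPM (0.16 [-0.05 to 0.37]) and is named after its value was seen.

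The H3K36 and H4K20 enzymes had ratios in a narrow range, from -0.35 to 0.07. The 4 H3K36 methyltransferases, of which Setd2 places the trimethyl mark and the Nsd enzymes the dimethyl mark, were all lower by small amounts, with ratios from -0.35 (Setd2) to -0.19 (Nsd2). After centring on length they ran from -0.14 (Nsd3) to 0.12 (Nsd2), with Setd2 (-0.03) and Nsd1 (0.01) close to 0. Nsd1 and Nsd2 thus turned above 0, while Setd2 and Nsd3 stayed below 0 in all 9 scalings and centrings. No interval was computed for centred ratios. Nsd1 was the most abundant per length, at 35.8 and 28.2 TPM, and the make-up of the Nsd group hardly differed (43.9% and 43.4% from Nsd1). The H3K36 demethylases were near them: Kdm2a at 94.2 and 77.1 CPM (-0.29 [-0.39 to -0.19]), and Kdm2b, which also brings a Polycomb complex to CpG islands, at 165 and 147 CPM (-0.17 [-0.24 to -0.10]). Kdm2a turned to 0.03 after centring on length. For H4K20, Kmt5a, the monomethyltransferase needed for cell division, stood at 140 and 138 CPM (-0.02 [-0.09 to 0.06]). Kmt5c, which makes the trimethyl mark, went from 122 to 105 CPM (-0.22 [-0.31 to -0.14]) and was 2.23 kb in effective length, among the shorter members. Kmt5b stood at 33.8 and 35.6 CPM (0.07 [-0.08 to 0.23]).

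Other genes that the name rule includes have no clear histone site or act on other proteins. Setd5, a SET-domain gene whose own catalytic activity is debated, was the member with the most counts in mESC. It went from 433 to 286 CPM, 1.51-fold lower at -0.60 (-0.65 to -0.55), or -0.28 after centring on length. Kmt2e, whose SET domain is held to be inactive, went from 37.3 to 20.9 CPM, 1.78-fold lower at -0.83 (-1.01 to -0.66), with reads partly shared and 9.31% of its exon bases opposite those of Srpk2. Setd3, which methylates a histidine of actin, stood at 104 and 114 CPM (0.13 [0.05 to 0.22]). Setd6, which methylates the NF-kappaB subunit RelA, stood at 51.3 and 56.2 CPM (0.13 [0.01 to 0.26]). Setd4 and Kdm8 had intervals that include 0 (0.02 [-0.23 to 0.27] and 0.16 [-0.15 to 0.48]).

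Ratio and transcript length went together among the members, as they did less steeply among all genes. Effective transcript length, taken from the ratio of deposited counts to FPKM, ran from 1.58 kb (Setd6) to 19.8 kb (Kmt2d). Over the 42 members, Spearman's rho between length and ratio was -0.56 and Pearson's r with log2 length was -0.41. Over all 13243 tested genes the values were -0.16 and -0.09. These are descriptions across genes of the same libraries, which are not independent. The 5 members of 10 kb or longer had a median ratio of -0.87, the 16 from 5 to 10 kb -0.41 and the 21 shorter ones -0.02. Tested genes of the same classes had medians of -0.51 (187 genes), -0.25 (1838) and 0.02 (11218), and 22.5%, 13.4% and 8.35% of them were at least 2-fold lower. Centred on their decile of length, the members had a median of -0.04, with 2 at least 2-fold higher and 2 lower. Kmt2d (-1.35), Kdm6b (-1.001), Setd7 (2.39) and Kdm4c (1.25) stayed beyond 2-fold after that step, and Kmt2a (-0.80) and Kdm3b (-0.76) did not. Among long members, Nsd1 at 11.8 kb (-0.30), Kdm5a at 10.9 kb (-0.32) and Kdm7a at 9.48 kb (0.59) had centred ratios of 0.01, -0.0014 and 0.90.

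**Figure D5:**
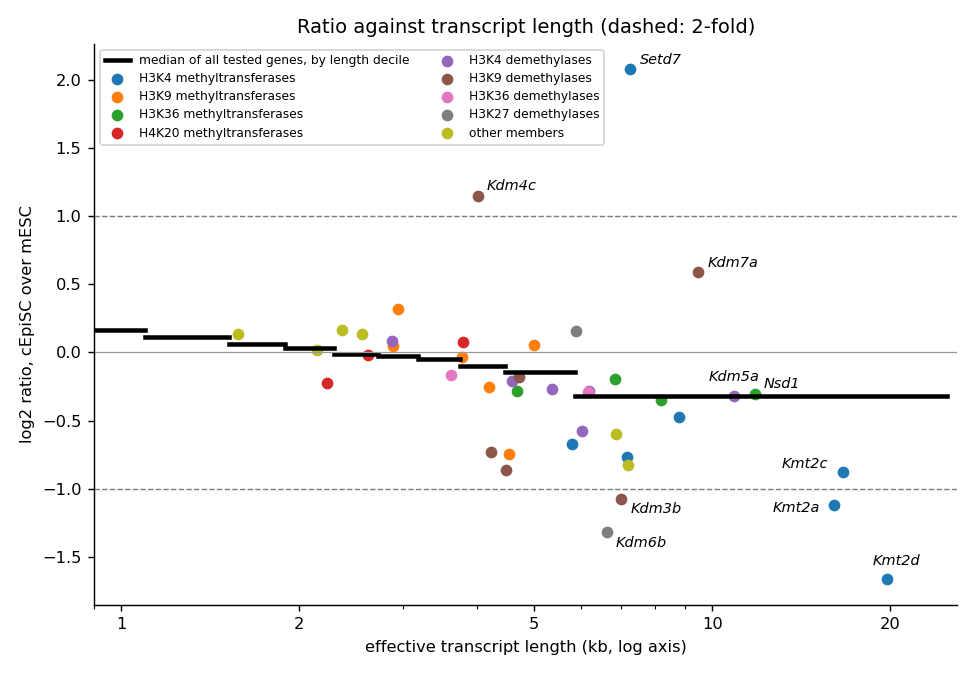
Log2 ratio of cEpiSC over mESC against effective transcript length in kb (log axis) for the 42 members, coloured by histone site; black steps give the median of all tested genes in each decile of length, and the last step runs on past the axis. Kmt2d, Kmt2a and Kmt2c lie below the last step (-0.32), Nsd1 and Kdm5a on it, and Setd7 and Kdm7a above it.

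Members that lie close together on a chromosome did not share 1 ratio. On chromosome 5, Kdm2b (122870664 to 122989270), Setd1b (123142040 to 123168630) and Kmt5a (124439930 to 124462311) had ratios of -0.17, -0.47 and -0.02. On chromosome 19, Kmt5b (3767362 to 3818303) and Kdm2a (4316144 to 4398721) had ratios of 0.07 and -0.29.

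Summed over the family, methyltransferases with a histone site (20 genes) went from 653 to 537 TPM and demethylases with one (17 genes) from 768 to 605 TPM. Both classes thus stood lower in cEpiSC by a like amount, at ratios of sums of 0.822 and 0.788. Their median log2 ratios were -0.27 and -0.28, and -0.08 and -0.05 after centring on length. Genes listed here as enzymes of the same kind but outside the name rule, 22 genes of which 21 reached 1 CPM, had a median of -0.09. The activity of each listed gene was not tested. None of those was 2-fold apart, 2 were at least 1.5-fold higher (Jmjd1c, and Riox2 at 30.4 and 55.0 CPM) and 3 lower. Of all tested genes 22.8% were 2-fold apart, and 20.7% were higher and 18.9% lower by 1.5-fold. The 3 were Dot1l (-0.68), which methylates H3K79, Ash1l (-0.71), which methylates H3K36, and Smyd3 (-0.61). Riox2, Dot1l, Ash1l and Smyd3 are named after their values were seen.

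In the order of the members by TPM, Kdm1a led in both libraries, and genes changed rank both near the top and lower down. Others, such as Kdm4b (rank 31) and Suv39h2 (rank 27), kept their rank. Setd5 stood at rank 2 in mESC (113 TPM) and rank 7 in cEpiSC (70.8 TPM), while Kmt5a stood at ranks 5 (95.02 TPM) and 2 (91.6 TPM). Kdm4c moved from rank 23 to rank 11 and Kdm6b from rank 19 to rank 30. Kmt2d moved from rank 35 to 41, where its 2.81 TPM lay close to the 2.89 TPM of Kmt2c and the 3.14 TPM of Kmt2a.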

How the data were processed

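Polyadenylated RNA of 2 libraries was sequenced as paired reads on a DNA nanoball instrument, per the labels' protocols. The deposited table holds unscaled estimated counts, and TPM and FPKM that the authors scaled per kilobase, per the file headers. RSEM 1.3.1, DESeq2 1.34.0, Bowtie2 and HISAT2 are listed in the submitters' processing notes. Which gene annotation was used, and whether counting used strand, is not given in the sources used here. Of the members, 17 share exon bases with a gene on the other strand, whose reads may then be mixed. In 6 members counts differed from whole numbers by over 0.005, as when reads are shared among similar loci. The table held 0 columns of other samples.

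Counts were rounded and scaled with TMM factors in edgeR 4.0.16 (R 4.3.3), at 0.975 for mESC and 1.03 for cEpiSC, and log2 ratios used a prior count of 2. Folds are without the prior count. Ratios were computed for the whole table, called at 2-fold or 1.5-fold by size alone among genes reaching 1 CPM in either library, and checked on simulated data. Intervals are exact conditional (Clopper-Pearson) 95% intervals, and cover counting error only, since each state had 1 library. Amplified reads were not tied to single molecules, so the intervals may be too narrow even for that error. The median half-width of the intervals for the members was 0.11. The members, lists and limits were chosen with earlier results of these data known. CPM, ratio and interval were given for members at least 1.5-fold apart and for the leading member of each site, except Nsd1. Counts were given for only some of them. Length centring used 10 bins, and GC centring, added after seeing the data, GENCODE vM21 transcripts (98.7% of tested genes).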

Additional observations from a re-analysis of the deposited data

How the results depend on the processing

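The counts were recomputed with DESeq2 1.42.0 size factors, library totals, no filter, a 5 CPM filter, prior counts of 0.5 and 5, the deposited TPM or FPKM after adding 1, and ratios centred on length or GC content. With FPKM, and after centring on length, 2 members in place of 4 were at least 2-fold lower in cEpiSC, so that 2 were higher and 2 lower; with TPM the count of lower members was 3. After centring on length, 7 members in place of 12 were at least 1.5-fold lower, 3 were higher, and the median log2 ratio was -0.035 in place of -0.26. The genes that left the 2-fold limit were Kmt2a and Kdm3b. With TPM only Kmt2a left it, and its 7.08 and 3.14 TPM were more than 2-fold apart before 1 was added. The cause in the other settings was not tested. Without a filter Kdm4d, with 0 and 3 counts, was counted as higher too, giving 3. No scaling moved the median of all tested genes by over 0.1. Of the 42 members, 8 changed sign under at least 1 scaling or centring: Kdm2a, Nsd1, Nsd2, Kdm5b, Ehmt2, Setdb2, Kmt5a and Setd4. No paired analysis was possible because each state had 1 library, and for the same reason no library could be left out. Depth limits Kdm4d and Kdm5d most.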
